A study of Homo sapiens with 8 samples.

Results

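The 10 interferon-stimulated genes IFIT1, IFIT2, IFIT3, OAS1, OAS2, OAS3, MX1, ISG15, RSAD2 and RIGI were followed through H3K4me3 and H3K27ac broad peaks of HL-60 cells. They were taken by name from 20098 protein-coding genes on chromosomes 1 to 22 and X, and all 10 were found on hg19. HL-60 is an established acute promyelocytic leukemia cell line from peripheral blood. The cells received 1 µM all-trans retinoic acid (ATRA), which drives these cells toward granulocytes, or an equal volume of ethanol (control) for 4 days, and medium and agent were renewed at day 2. Each mark was measured by ChIP-seq in 2 ATRA replicates and 2 control replicates, so 8 libraries of 1 cell line were compared. Nothing in the labels ties a replicate to a separate culture, and the spread between replicates may therefore be technical.

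Type I interferons bind the receptor IFNAR1/IFNAR2, the kinases JAK1 and TYK2 become active, and a complex of transcription factors that holds IRF9 binds the interferon-stimulated response element (ISRE) in the promoters of target genes. The targets described here are antiviral effectors and a sensor. H3K4me3 is a histone mark found mainly at gene starts, and H3K27ac is found at active starts and enhancers. In myeloid leukemia cells, differentiation by retinoic acid is known to be accompanied by expression of several interferon-stimulated genes. No expression data were used here.

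The genes lie in 6 stretches of the genome (GRCh37/hg19, GENCODE annotation). The IFIT genes form a cluster on chromosome 10, with IFIT2 (ENSG00000119922.11) at chr10:91043451-91069028, IFIT3 (ENSG00000119917.15) at chr10:91087064-91137230 and IFIT1 (ENSG00000185745.10) at chr10:91152303-91166244. The OAS genes form a cluster on chromosome 12, with OAS1 (ENSG00000089127.15) at chr12:113343661-113371024, OAS3 (ENSG00000111331.14) at chr12:113375856-113414265 and OAS2 (ENSG00000111335.14) at chr12:113416200-113449528. ISG15 (ENSG00000187608.10) is at chr1:936518-949920, RSAD2 (ENSG00000134321.13) at chr2:7005688-7038370, MX1 (ENSG00000157601.15) at chr21:42791947-42841998 and RIGI (ENSG00000107201.11) at chr9:32455300-32526206. RIGI is on the minus strand and the other members are on the plus strand. For 4 members, the outermost annotated 5′ end is far from the start of the canonical transcript: 18352 bp at IFIT2, 12359 bp at ISG15, 12220 bp at RSAD2 and 6219 bp at MX1. Positions below are given from the canonical start, negative upstream.

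The ISRE core was searched as GAAA, any pair of bases and GAAA, on both strands, from 250 bp before to 50 bp after each canonical start. It matched in 7 of the 10 members, IFIT1, IFIT2, IFIT3, OAS2, OAS3, ISG15 and RSAD2, and in 3.32% of all 20098 promoters of the same length. OAS1, MX1 and RIGI held no match in this window. The search required exactly 2 bases between the GAAA units. GAAACGAAA, with 1 base between them and so not counted, lay within 250 bp before the canonical start of each of these genes. It was on the gene's strand at OAS1 and RIGI and on the other strand at MX1, and its share over all promoters was not counted. At MX1, a match lay 41 bp before another annotated start, at position 42792537, which is where the H3K4me3 peaks of this gene were found. The 30 bases around 1 match of each gene are shown from the GRCh37 plus strand, because they are the stretches whose peak cover is described for each member below. The capitals mark the core, and a core that begins with TTTC is a match read on the minus strand.
IFIT1, chr10:91152267-91152296: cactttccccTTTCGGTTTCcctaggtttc
IFIT2, chr10:91061698-91061727: cactttctagTTTCACTTTCccttttgtaa
IFIT3, chr10:91087622-91087651: tttaaattagTTTCACTTTCcagtttcctc
OAS2, chr12:113416316-113416345: tagacttcagTTTCAGTTTCctggctctgg
OAS3, chr12:113376257-113376286: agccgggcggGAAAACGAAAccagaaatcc
ISG15, chr1:948760-948789: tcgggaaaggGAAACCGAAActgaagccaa
RSAD2, chr2:7017753-7017782: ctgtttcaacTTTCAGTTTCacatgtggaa
MX1, at the other start, chr21:42792486-42792515: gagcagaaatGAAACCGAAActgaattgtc
IFIT1, IFIT2, IFIT3, OAS3 and ISG15 each held 2 matches near the canonical start, and OAS2 and RSAD2 held 1. The core of ISG15 and that of MX1 are the same 10 letters. The 250 bp before the canonical starts of the members had a GC content between 40.4% (IFIT3) and 66.4% (MX1), against a median of 63.2% over all genes.

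In each library, the length under peaks was summed over the gene body plus 10 kb on each side. A member was called higher or lower when both ATRA libraries lay above or below both control libraries, and log2 changes were taken between condition means after 1000 bp was added to each. With 2 libraries against 2, the smallest two-sided p of an exact permutation test is 0.33, so no p-value was computed. A larger share of cells with a mark and a stronger mark in each cell cannot be told apart in these data.

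The whole libraries moved in the same direction as most members. H3K4me3 peaks covered 63.2 and 62.3 Mb in the ATRA libraries and 59.8 and 47.7 Mb in the control libraries, and H3K27ac peaks covered 64.8 and 86.1 Mb against 28.8 and 54.0 Mb. Control replicate 2 had the smallest H3K4me3 cover and control replicate 1 the smallest H3K27ac cover. Counts without these libraries and after division by the total are given with the limits below, and the share of all genes called the same way stands beside the member counts. Of 6 myeloid markers, PTPRC, SPI1, CD33 and MPO carried an H3K4me3 peak over the start in all 4 libraries. ELANE and LYZ had no start peak of either mark in any library, and the LYZ window was lower under ATRA for H3K27ac. Of 8 markers of T cells, B cells, epithelium, hepatocytes and erythroid cells, 0 carried an H3K4me3 start peak in any library. Of 3 granulocytic differentiation markers, ITGAM and CD38 carried start peaks of both marks in both ATRA libraries and in no control library, and TGM2 had no start peak of either mark in any library.

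H3K4me3 was present around 9 of the 10 members, and OAS2 had no peak in any library. In 7 of the 9, namely IFIT2, IFIT3, OAS1, OAS3, ISG15, RSAD2 and RIGI, both ATRA libraries had more length under peaks than both control libraries, and 0 were lower. Among the 13779 genes with an H3K4me3 peak in this window, 40.8% were higher and 3.85% were lower. The median log2 change of the 9 members was 0.30, against 0.15 over those genes. The order from the largest change was OAS1 (1.02), OAS3 (0.92), IFIT3 (0.79), RSAD2 (0.64), RIGI (0.30), MX1 (0.30), IFIT2 (0.26), ISG15 (0.16) and IFIT1 (0.10). This order depended on the settings. In the canonical transcript plus 10 kb on each side, a window added after the data were seen, OAS1 was at 0.18 and RSAD2 at 0.00. In that window 5 members were higher, against 40.6% of genes with a peak. With 5000 bp added to each mean, IFIT3 (0.37) and RSAD2 (0.31) lay above OAS1 (0.27) and OAS3 (0.24). When each library was divided by its total length under peaks, 5 members were higher (IFIT2, IFIT3, OAS1, OAS3 and RSAD2) and 2 were lower (IFIT1 and ISG15), and 16.1% of all genes were higher. The share of all genes lower after this division is not given here, so the 2 lower members have no background beside them. Leaving out a control library changed several of these values. Without control replicate 1 the log2 change was 0.41 at IFIT2, 0.29 at ISG15 and 1.17 at RSAD2, and without control replicate 2 it was 0.12, 0.04 and 0.26.

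H3K27ac was present around 7 of the 10 members, and the windows of OAS1, OAS2 and OAS3 held no peak in any library. IFIT3, MX1, ISG15 and RSAD2 were higher under ATRA and 0 of the 7 were lower. Among 14622 genes with an H3K27ac peak in the window, 41.6% were higher and 3.93% were lower. After division by the total length under peaks, the count of members stayed at 4 and the share of all genes was 17.7%. The median log2 change was 0.86 for the 7 members and 0.45 over those genes. The H3K27ac peaks at the members had low −log10 q values. Of 34 such peaks, each counted once, 2 had a −log10 q of at least 5, both in control replicate 2 at IFIT2, while 33 of 41 H3K4me3 peaks reached that level. At this stricter level 0 members were higher for H3K27ac, against 8.83% of all genes, and 6 were higher for H3K4me3, against 34.9%. The −log10 q values are taken as deposited, and neighboring columns of the same files hold impossible values, so this filter is less certain than the positions.

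**Figure D1:**
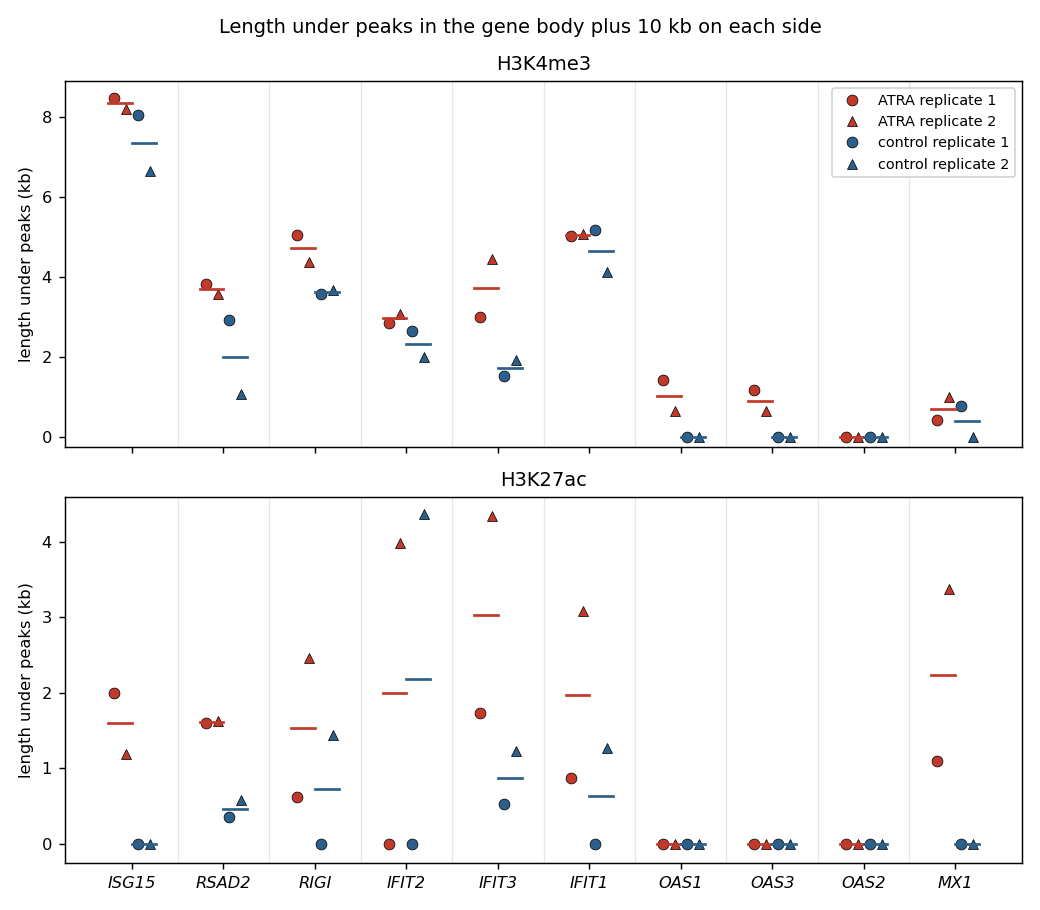
Length under H3K4me3 (top) and H3K27ac (bottom) peaks in kb for each member, in the gene body plus 10 kb on each side, with 1 point for each library, red for ATRA, blue for control, circles for replicate 1, triangles for replicate 2, and bars at the means of the 2 replicates. For H3K4me3 the ATRA points lie above both control points in 7 members. For H3K27ac the points of IFIT1, IFIT2 and RIGI overlap and the OAS genes are at 0.

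**Figure D2:**
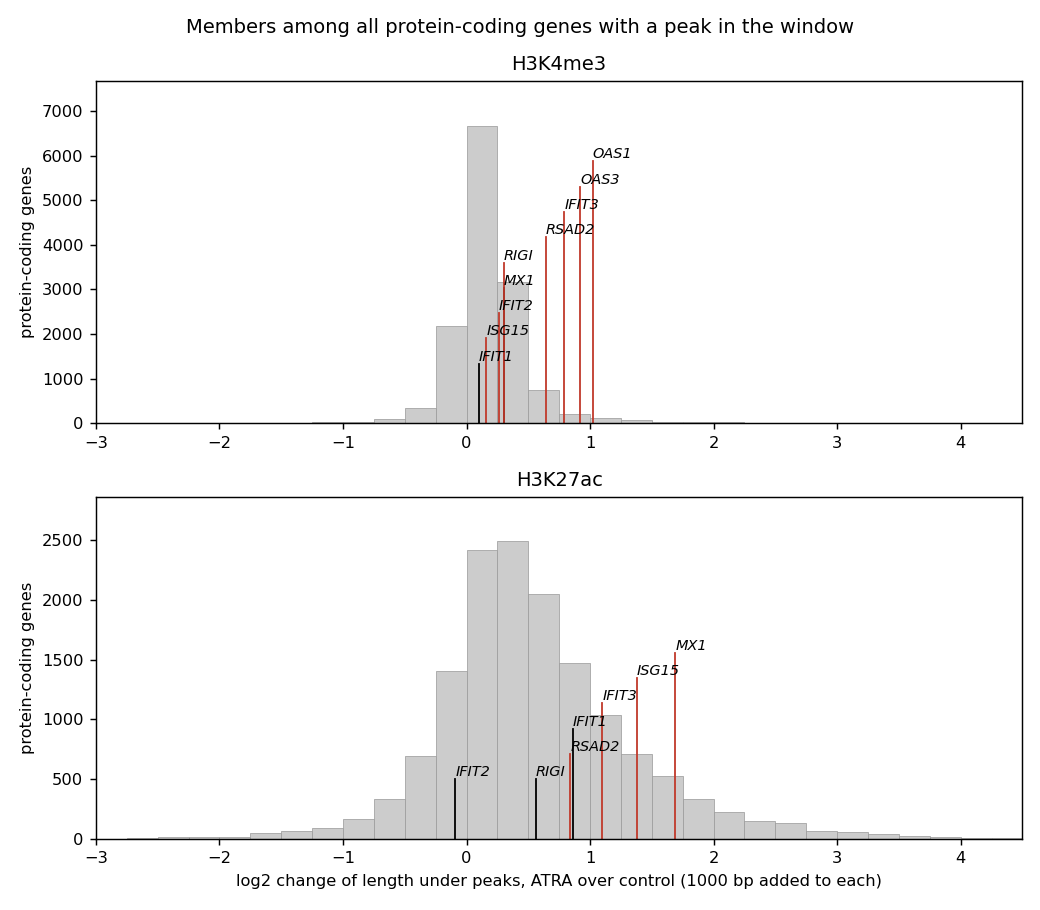
Histogram of the log2 change of length under peaks (ATRA over control, 1000 bp added to each mean) over all protein-coding genes with a peak in the window, on a linear count axis, with each member as a vertical line whose height has no meaning. Red lines are members with both ATRA libraries above both control libraries, and the black line of MX1 for H3K4me3 lies under the red line of RIGI at 0.30. OAS1, OAS3, IFIT3 and RSAD2 lie in the right tail for H3K4me3, and MX1 and ISG15 lie farthest to the right for H3K27ac.

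Over the 515707 bp of the 6 merged stretches, which count shared bases once, H3K4me3 peaks covered 30050 and 30365 bp in the ATRA libraries and 24650 and 19431 bp in the control libraries. The log2 change, here with no length added to the means, was 0.45 over these stretches and 0.22 over the genome. H3K27ac peaks covered 7921 and 18882 bp against 878 and 8305 bp. The log2 change, taken the same way, was 1.55, against 0.87 over the genome, and ATRA replicate 1 had less cover than control replicate 2, so the groups overlapped.

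At the outermost 5′ end of the genes, a peak of H3K4me3 was found in all 4 libraries in 2 members, IFIT1 and RIGI, while 47.2% of all genes had one. IFIT3 was the 1 member with such a peak in both ATRA libraries and no control library, a pattern seen in 0.299% of all genes. At IFIT3 this came from the wider ATRA peaks, which reached an upstream start that the control peaks did not reach. No member had the opposite pattern, which 0.124% of all genes showed. At the canonical start, chosen as a second reference after the data were seen, 5 members had a peak in all 4 libraries, IFIT1, IFIT2, IFIT3, ISG15 and RIGI, against 50.4% of all genes. In 0 members was this start covered in both ATRA libraries and no control library (0.259% of all genes). The peak over the canonical start was longer in both ATRA libraries in 4 of the 6 members that had one in any library, IFIT2, IFIT3, ISG15 and RIGI, against 41.3% of 10906 genes. H3K4me3 was within 1 kb of the canonical start in both ATRA and no control library in 1 member, OAS3, and in 0.318% of all genes.

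For H3K27ac, 0 members had a peak over the outermost 5′ end in all 4 libraries (18.0% of all genes). IFIT1 and IFIT3 had one in both ATRA libraries and no control library, a pattern of 3.02% of all genes, and 0 members had the opposite pattern (0.403%). At the canonical start, IFIT3 was the 1 member with a peak in all 4 libraries (19.5% of all genes). IFIT1 was the 1 member with a peak there in both ATRA libraries and no control library (3.03%). Of the members, 2 of the 4 members with a peak in any library, IFIT1 and IFIT3, had longer peaks in both ATRA libraries (30.5% of 8734 genes). ISG15 and RIGI had a peak within 1 kb of the canonical start in both ATRA libraries and no control library, as 2.51% of all genes did. The H3K27ac pattern of a gene thus depended on which start was used, and IFIT1 left the class without a control peak once peaks within 1 kb were counted.

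**Figure D3:**
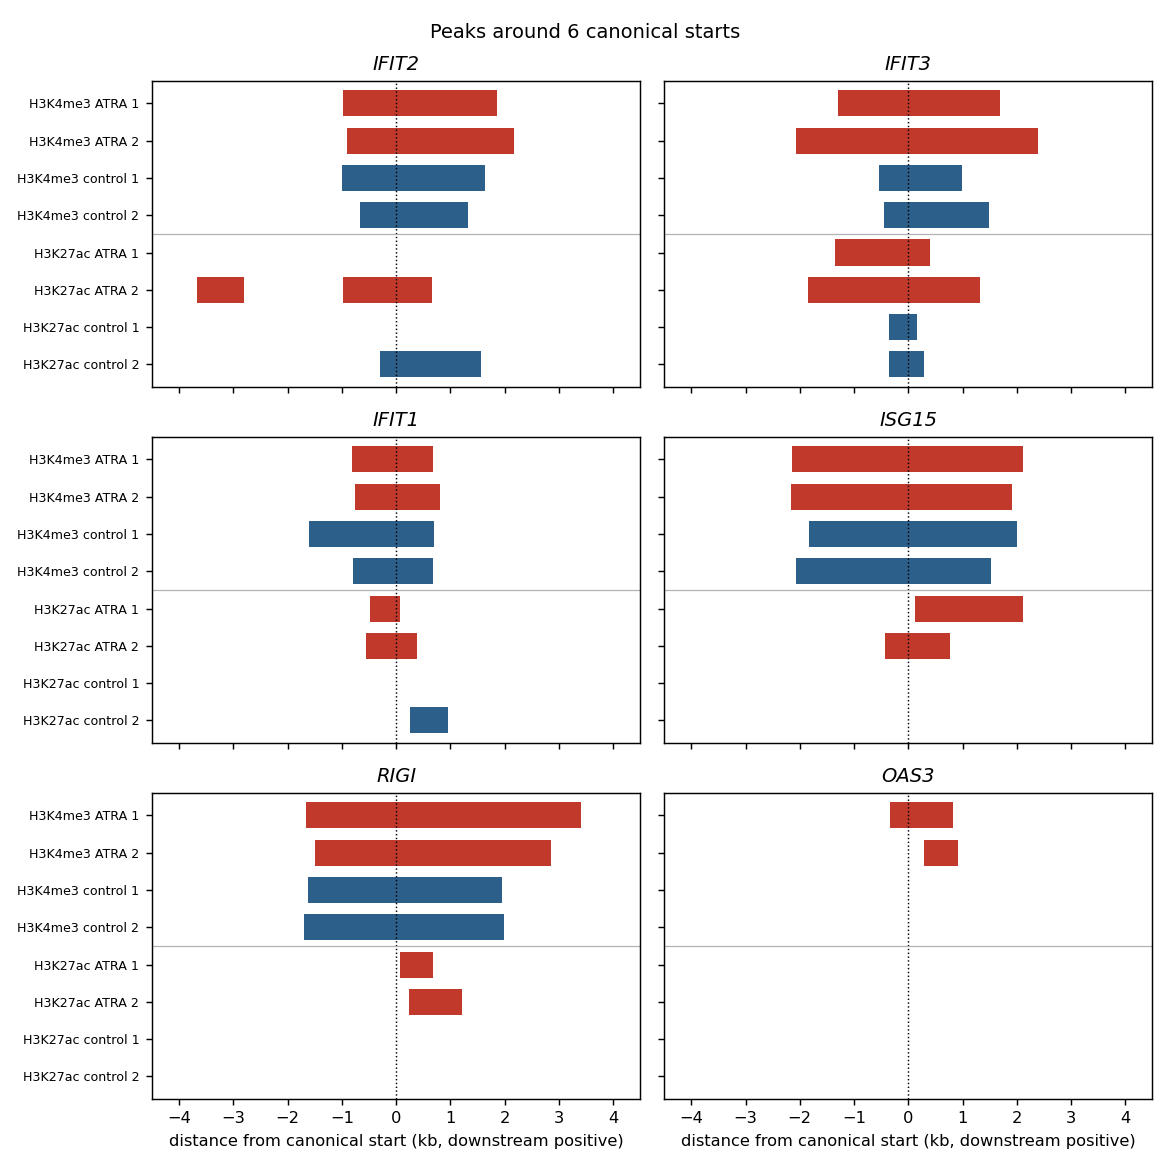
Peaks around the canonical starts of IFIT2, IFIT3, IFIT1, ISG15, RIGI and OAS3, as distance from the start in kb (downstream positive), with 1 row for each library, H3K4me3 above the grey line and H3K27ac below it, red for ATRA and blue for control. The IFIT3 peaks are wider on both sides in the ATRA libraries, the RIGI H3K4me3 peaks extend farther downstream, and OAS3 has a peak in the ATRA libraries alone.

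The IFIT proteins bind viral RNA and limit its translation. IFIT3, which stabilizes IFIT1, had the clearest difference of this family. The length of H3K4me3 in its window was 2993 and 4455 bp in ATRA replicates 1 and 2 and 1526 and 1931 bp in control replicates 1 and 2. All of it belonged to a single peak over the canonical start, which ran from −1300 to 1692 and from −2063 to 2391 bp in the ATRA libraries. In the control libraries it ran from −541 to 984 and from −443 to 1487 bp. Both edges thus lay farther out under ATRA, and the log2 change of 0.79 was at the 96.8 percentile of all genes with a peak. H3K27ac over the same start was 1737 and 3162 bp long in the ATRA libraries and 525 and 643 bp long in the control libraries. The control peaks ran from −357 to 167 and from −357 to 285 bp. All 8 libraries covered both ISRE matches of this start. Without ATRA replicate 2 the H3K27ac log2 change of the window went from 1.10 to 0.54.

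IFIT2 carried a single H3K4me3 peak, over the canonical start and both of its ISRE matches. It was 2848 and 3080 bp long under ATRA and 2640 and 1984 bp long in control cells. The groups did not overlap, and the log2 change was 0.26. H3K27ac split by replicate number instead of by treatment: 3981 bp lay under peaks in ATRA replicate 2 and 4369 bp in control replicate 2, and no peak was found in either library numbered 1. Between 60.9% and 62.9% of this length was outside the H3K4me3 peak of the same replicate number. Most of it was in 3 peaks between −8087 and −2798 bp in the ATRA library and in 1 peak from −7650 to −5145 bp in the control library, and the rest was at the edge of the start peak.

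At IFIT1, the H3K4me3 peak over the start was 1493 and 1560 bp long under ATRA and 2304 and 1470 bp long in control cells, so the groups overlapped. The window also held the start peak of IFIT5, a related RNA-binding protein, with 4014 and 4179 bp under ATRA and 2864 and 2659 bp in control cells. H3K27ac covered the IFIT1 start and both ISRE matches for 555 and 943 bp in the ATRA libraries and not in the control libraries. Control replicate 2 had a peak from 265 to 953 bp downstream of the start, and its window total of 1275 bp was above the 877 bp of ATRA replicate 1. Over the whole window the groups therefore overlapped, with 3077 bp in ATRA replicate 2 and 0 bp in control replicate 1.

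The OAS proteins make oligoadenylates that activate RNase L. Their cluster spans 105868 bp and was the 1 stretch without H3K27ac. OAS3 had H3K4me3 peaks of 1158 and 636 bp in the ATRA libraries and none in the control libraries. Replicate 1 covered the canonical start and both ISRE matches, from −331 to 826 bp, and replicate 2 lay downstream of them, from 288 to 923 bp. OAS1 had 1 small peak of its own, 263 bp long and 212 bp downstream of its start, in ATRA replicate 1. The remaining length in the OAS1 window was the OAS3 peak, since these windows share 15169 bp, so OAS1 and OAS3 are not independent in the counts above. All 3 OAS peaks had a −log10 q of at least 5. They were short: the OAS3 start peak of ATRA replicate 1 was at the 0.8 percentile of start peaks in that library.

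No H3K4me3 peak lay at OAS2, whose ISRE match begins 2 bp after the start and was uncovered in all 8 libraries. In the control libraries, the H3K4me3 peaks nearest to the OAS cluster were 119327 and 120734 bp beyond its far end. The nearest H3K27ac peak was 36680 bp beyond it in control replicate 2 and between 121667 and 123003 bp beyond it in the other 3 libraries. Windows without any peak were not rare: 31.4% of all protein-coding genes had no H3K4me3 peak and 27.2% had no H3K27ac peak.

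ISG15 is a ubiquitin-like protein that is joined to other proteins. Its start carried a broad H3K4me3 peak in all 4 libraries, 4271 and 4080 bp long under ATRA and 3827 and 3597 bp long in control cells. The peaks of all 4 libraries ran past both ends of the canonical transcript. The groups did not overlap, but they were close, and after division by the total length under peaks the window was lower in both ATRA libraries. The window total was 8468 and 8196 bp against 8051 and 6631 bp, and it included the start of AGRN in all libraries and peaks near HES4 in 3 of them. H3K27ac appeared at ISG15 in the ATRA libraries and not in the control libraries. The peak ran from 122 to 2117 bp in replicate 1, downstream of the start, and from −423 to 770 bp in replicate 2, over the start and the ISRE matches. Both peaks lay wholly inside the H3K4me3 peak of the ATRA library with the same replicate number.

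MX1, a dynamin-like GTPase that blocks viral nucleocapsids, carried no peak of either mark over its canonical start. Its H3K4me3 lay upstream, from −5704 to −5286 and from −6334 to −5344 bp in ATRA replicates 1 and 2 and from −6243 to −5475 bp in control replicate 1. Control replicate 2 had none, and the totals of 419 and 991 bp against 769 and 0 bp overlapped. All 3 peaks covered the ISRE match shown above for the other start. H3K27ac covered 1093 and 3378 bp in the ATRA libraries and 0 bp in both control libraries. This was the largest H3K27ac change of the members, with a log2 of 1.69 at the 92.1 percentile of all genes. Without ATRA replicate 2 it was 1.07, below the 1.58 of ISG15. The peak of ATRA replicate 2, from −8031 to −4654 bp, covered that ISRE match, and the peak of replicate 1, from −7969 to −6893 bp, ended upstream of it.

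The stretch upstream of MX1 holds its paralog MX2, which restricts retroviruses at the nuclear pore. MX2 had an H3K27ac peak over its start of 14002 and 13310 bp under ATRA and none in the control libraries at that base. In each control library a shorter peak began just downstream of it. Measured from the MX1 start, these began at −64023 and −63966 bp, and the MX2 start is at −64212 bp. Control replicate 2 also had a short peak just upstream of the MX2 start, from −65068 to −64812 bp. The MX2 window held 27550 and 21434 bp of H3K27ac under ATRA and 1185 and 3807 bp in control cells. H3K4me3 at the MX2 start was 3966 and 4162 bp long against 1744 and 1632 bp. Both MX genes were therefore higher for H3K27ac, and for H3K4me3 the groups were apart at MX2 and overlapped at MX1.

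RSAD2 encodes viperin, an enzyme that makes a chain-terminating nucleotide. No H3K4me3 peak was found at its canonical start or at the ISRE match before it. The H3K4me3 of its window, 3814 and 3575 bp under ATRA and 2928 and 1082 bp in control cells, formed 1 peak far upstream, from −13849 to −10036 bp in ATRA replicate 1. It covered the start of the neighbor CMPK2, a nucleotide kinase read in the opposite direction, in 3 libraries. In control replicate 2 the peak stopped short of the CMPK2 start. The same peak covered the outermost annotated 5′ end of RSAD2 in those 3 libraries, and the difference cannot be given to 1 of these genes. In 3 libraries its −log10 q was below 5, and with that filter the log2 change went from 0.64 to −0.62. H3K27ac lengths in the window were 1601 and 1631 bp under ATRA and 353 and 576 bp in control cells. The ATRA replicate 1 peak lay from 28862 to 33515 bp, beyond the 3′ end, while ATRA replicate 2 had a peak of 918 bp at the CMPK2 start and 1 of 713 bp beyond the 3′ end. The ATRA replicate 1 peak was 4654 bp long and ran past the window end, which set the 1601 bp counted. Thus the like totals of the 2 ATRA libraries came from different places. The control replicate 1 peak, from 29099 to 29451 bp, lay inside the stretch of the ATRA replicate 1 peak. Control replicate 2 had peaks nearer the start, from −4385 to −4024 and from 1838 to 2051 bp. In the gene body alone the H3K27ac log2 change went from 0.84 to 0.18.

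RIGI is the cytosolic sensor of viral RNA that starts interferon production, and its full name is retinoic acid-inducible gene I. Its H3K4me3 was a single start peak of 5056 and 4358 bp under ATRA and 3568 and 3674 bp in control cells. The upstream edges were alike, at −1652 and −1499 bp under ATRA and at −1616 and −1694 bp in control cells. The downstream edges were at 3403 and 2858 bp under ATRA and at 1951 and 1979 bp in control cells, so the added length was inside the gene. H3K27ac peaks of 617 and 981 bp lay just downstream of the start in the ATRA libraries, from 68 to 684 and from 239 to 1219 bp. No control library had one there. Control replicate 2 had 1442 bp of H3K27ac far downstream, from 56567 to 58008 bp, inside the gene. ATRA replicate 2 had peaks of 374 and 1104 bp at or near this place, from 56557 to 56930 and from 54152 to 55255 bp. The window totals overlapped.

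**Figure D4:**
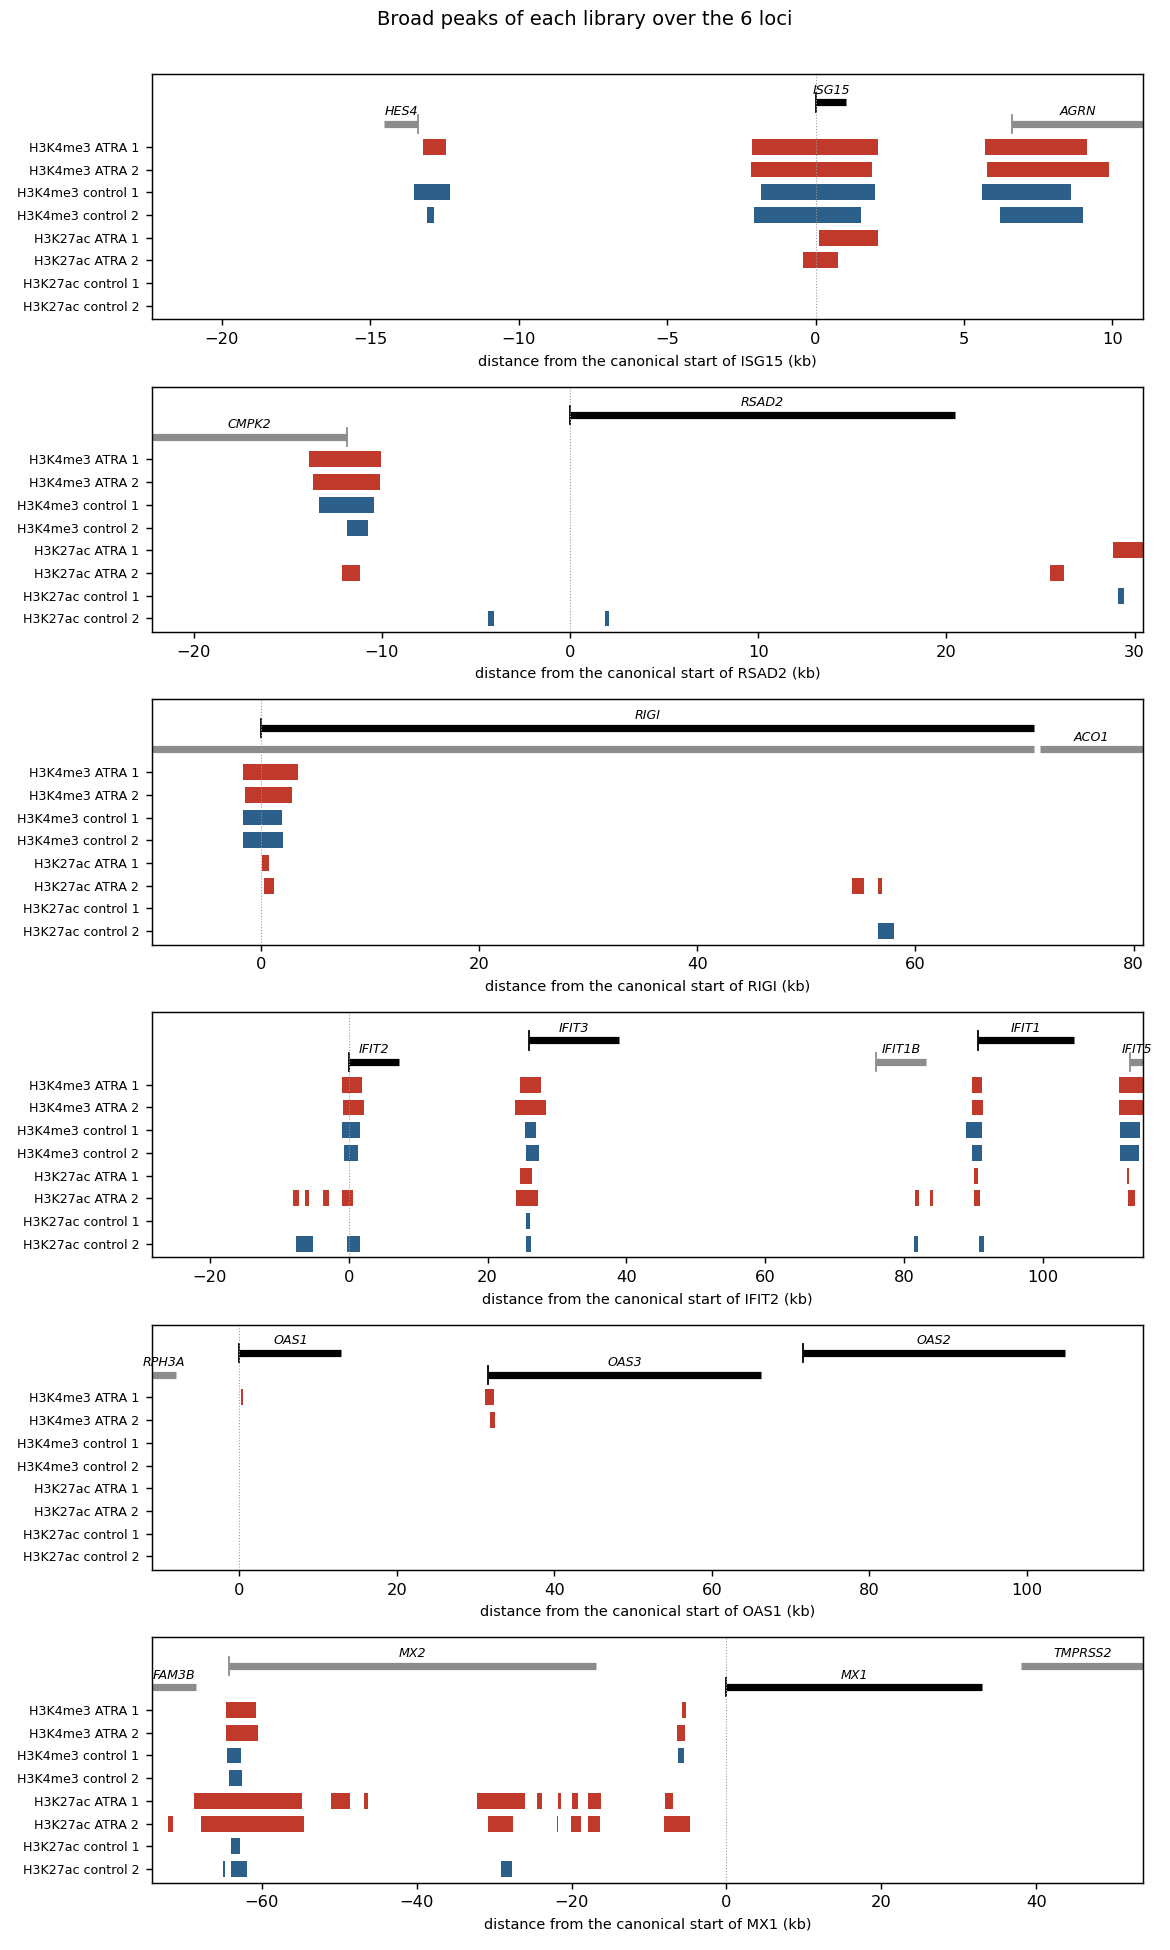
Broad peaks of the 8 libraries over the 6 stretches, as distance in kb from the canonical start of the gene named on each axis, red for ATRA and blue for control, with members as black bars, other protein-coding genes as grey bars and a tick at each canonical start. The MX1 panel is extended upstream to show MX2. The OAS panel holds 3 peaks, all H3K4me3 of ATRA libraries, and the RSAD2 panel shows its H3K4me3 at the start of CMPK2.

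In both ATRA libraries, the 2 marks met over the canonical starts of IFIT1 and IFIT3 and within 1 kb of those of ISG15 and RIGI. The RIGI start itself had no H3K27ac in any library, and the ISG15 start had it in ATRA replicate 2 alone. In ATRA replicate 2 the marks also met upstream of the canonical start of MX1, and at the CMPK2 start in the RSAD2 window. They also met over the IFIT3 start in both control libraries and over the IFIT2 start in replicate 2 of each condition. In control replicate 2 they overlapped downstream of the IFIT1 start. In ATRA replicate 1, between 0.0% and 2.4% of the H3K27ac length in the windows of IFIT1, IFIT3, ISG15 and RIGI was outside the H3K4me3 peaks of the same replicate number. In ATRA replicate 2 the share was 0.0% at ISG15, 38.0% at IFIT1 and 60.1% at RIGI, and at IFIT3 1170 of 4332 bp lay outside. The bases outside at IFIT1 and at IFIT3 were the same 2 peaks, because these windows share 4928 bp. At MX1 the share outside was 100.0% and 70.7% in ATRA replicates 1 and 2. The H3K4me3 start peaks of these members were shorter than the median start peak of their libraries. Over the canonical starts of IFIT1 and IFIT2, H3K4me3 lengths were between the 1.4 and 8.9 percentiles of all start peaks of the same library, and those of ISG15 and RIGI were between the 17.5 and 37.9 percentiles. IFIT3 was at the 7.5 and 26.9 percentiles in the ATRA libraries and at the 2.3 and 4.9 percentiles in the control libraries.

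The rest of the type I interferon pathway was listed by role and read against the same backgrounds, 40.8% of genes higher for H3K4me3 and 41.6% for H3K27ac. Of 17 ligand genes (IFNB1 and the IFNA genes among them), 0 had a start peak of either mark. A single ligand gene had H3K4me3 in its window and 3 had H3K27ac, each with overlapping groups. IFNB1, chosen after its values were seen, had 926 and 3351 bp of H3K27ac under ATRA and 0 and 1608 bp in control cells. Of the 7 receptor and signalling genes, 4 were higher for each mark and 0 were lower.

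For H3K4me3 these included IFNAR1, named after its values were seen, with 7214 and 6318 bp in the window under ATRA and 5871 and 5588 bp in control cells. For H3K27ac the 4 were IFNAR2, TYK2 and, also named after their values were seen, STAT2 and IRF9. The receptor subunit gene IFNAR2 held 28162 and 39301 bp against 4600 and 10829 bp, with a log2 change of 1.99. The kinase gene TYK2 held 4391 and 7189 bp against 0 and 1323 bp, with a log2 change of 2.03. IRF9 held 1084 and 1281 bp against 0 bp in both control libraries. These groups did not overlap.

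Of 10 sensor and sensor-signalling genes, 4 were higher for H3K4me3 and 4 for H3K27ac. IKBKE, a kinase that activates IRF3 and IRF7, had an H3K27ac start peak of 10363 and 6369 bp in the ATRA libraries and none in the control libraries. Of 38 other induced effectors, 29 had H3K4me3 and 30 had H3K27ac in the window, and 12 and 11 of these were higher. Both counts stand near the background. Some of these genes share peaks and are not independent in the counts. PARP9 and DTX3L, IFITM1 and IFITM2, and TRIM22 and TRIM5, named for this reason, had pairwise equal H3K4me3 lengths in each library. The H3K4me3 of the CMPK2 window is the peak already counted at RSAD2. The largest H3K4me3 change was at IFI16, a nuclear DNA sensor, with 7362 and 6540 bp under ATRA and 1192 and 0 bp in control cells (log2 2.32). MX2 (0.91), SAMHD1 (0.74), CMPK2 (0.64) and SP100 (0.56) followed it on the log2 scale.

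The largest H3K27ac change was at SAMHD1, which breaks down deoxynucleotides, with 13333 and 14387 bp under ATRA and 0 bp in both control libraries (log2 3.89). Among the 38 effectors, HERC6, TRIM5, MX2 and SAMHD1 had an H3K27ac peak over the canonical start in both ATRA libraries and no control library, a pattern of 3.03% of all genes. At MX2, control peaks began just downstream of that start, and in control replicate 2 another lay just upstream, as given above. The HERC6 peak was 842 and 1292 bp long. The 2 induced brakes of the pathway are named because their list holds no other gene. USP18 had 1462 and 1991 bp of H3K4me3 at its start under ATRA and 2277 and 1353 bp in control cells, which overlapped, and no H3K27ac in its window. SOCS1 had a start peak of 4836 and 4680 bp under ATRA and 4500 and 1929 bp in control cells, which did not overlap. In each of these lists, 0 genes were called lower for either mark.

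**Figure D5:**
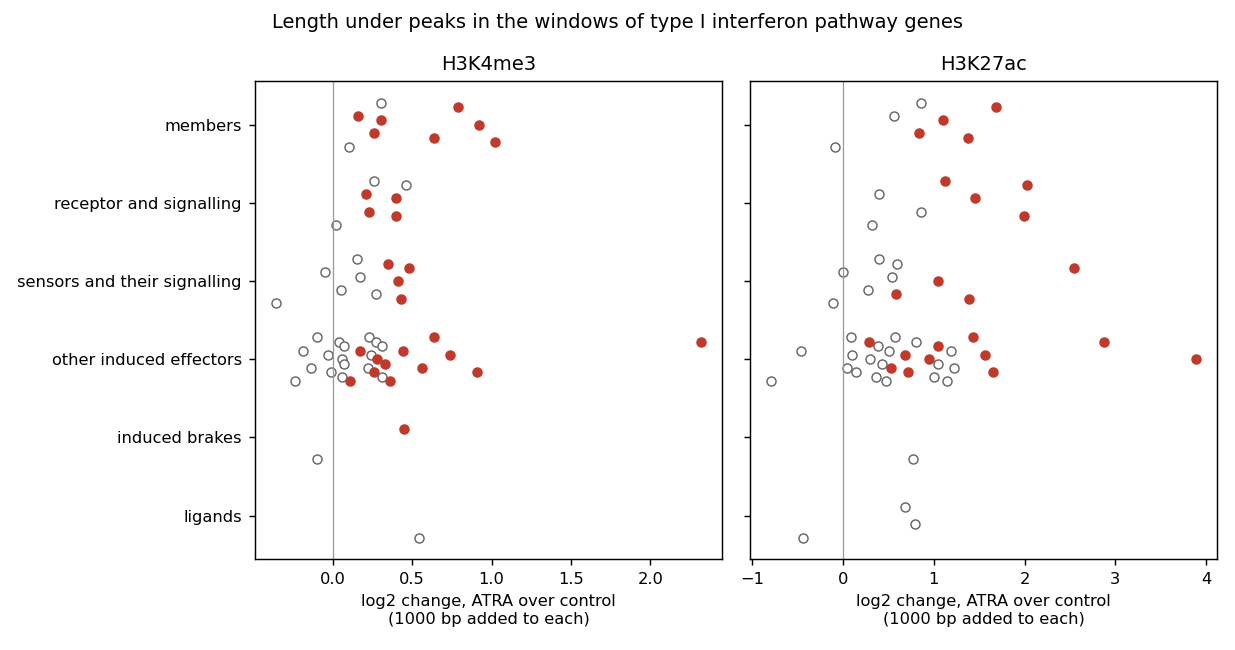
Log2 change of length under H3K4me3 (left) and H3K27ac (right) peaks in the window, ATRA over control with 1000 bp added to each mean, 1 point for each gene with a peak, in rows by role in the pathway and with vertical scatter for legibility alone. Filled red points are genes with both ATRA libraries above both control libraries and open points are genes whose groups overlap. IFI16 at 2.32 for H3K4me3 and SAMHD1 at 3.89 for H3K27ac lie farthest to the right.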

How the data were processed

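H3K4me3 and H3K27ac ChIP-seq peaks of 8 HL-60 libraries were used, 4 for each mark. According to the methods and the submitters' processing notes, the authors trimmed adapters with cutadapt, used Bowtie for the alignment to hg19, and ran the broad peak caller of MACS2 on each library alone. The versions and the use of input in the peak call are not given in the sources used here. The deposited files hold peak positions, the 1 measure used for lengths, and a −log10 q-value, used only as a filter (threshold 5). The deposited fold enrichment and −log10 p columns hold values these measures cannot take and were not used, and whether the −log10 q column is sound could not be checked. Read counts behind peaks are unknown, so no interval from counts can be given and precision rests on the 2 replicates.

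Gene models were GENCODE release 44 mapped to GRCh37. Sequences and motifs were read from GRCh37. Lengths were computed with Python 3.11.15 and numpy 2.4.6 in the gene body plus 10 kb on each side, and a peak was at a start with 1 bp of overlap. The steps were tested on simulated peaks. Libraries were grouped by their labels into ATRA and control for each mark. Named genes were the 10 members, neighbors whose starts lie in their windows and, from the pathway lists, genes with a start peak gained or lost or among the 5 largest called changes of a mark, and the text says where a gene was named otherwise. The members and lists were chosen with earlier results of these data known. Alternatives changed the q threshold, peak length, window, start, scaling, pseudocount, background, block and libraries. Some items that the lists cover are not reported here.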

Additional observations from a re-analysis of the deposited data

How the results depend on the processing

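The lengths, and not read counts, set what can be seen: a peak that falls just under the caller's threshold counts as 0, and 2 replicates give no error beyond their own spread. Of the members' log2 changes under the alternatives, 151 moved by less than the spread between replicates, 68 moved by more and 5 were of the opposite sign in a member called higher. The latter were RSAD2 H3K4me3 at −0.62 with a −log10 q of at least 5, ISG15 H3K4me3 at −0.32 within 2 kb of the 5′ end, −0.04 after division by the total length under peaks and −0.19 as a number of peaks, and RIGI H3K4me3 at −0.02 within 2 kb of the 5′ end. The cause was not tested. In members whose groups overlap, 13 further values changed sign, at IFIT1 and MX1 for H3K4me3 and at IFIT1, IFIT2 and RIGI for H3K27ac.

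For H3K4me3, 7 members were higher and 0 lower. The number higher was 4 with peaks of at least 1000 bp (41% of all genes), 3 within 2 kb of the 5′ end (20.6%) and 2 as a number of peaks (5.89%), and 2 were lower after division by the total. The median of 0.30 became 0.00 as a number of peaks and 0.63 with a pseudocount of 200 bp. For H3K27ac, 4 were higher. The number was 0 with a −log10 q of at least 5, where IFIT2 alone kept a peak and the median was −1.67, 2 in the gene body alone (36.5% of all genes) and 2 as a number of peaks (19.1%). The median of 0.86 became 1.45 and 0.31 with pseudocounts of 200 and 5000 bp.

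When 1 replicate was left out, the number of members higher ranged from 7 to 9 for H3K4me3 and from 4 to 6 for H3K27ac, while the share of all genes ranged from 43.4% to 80.4% and from 45.9% to 70.9%, with the highest member counts beside the highest shares, the number lower from 0 to 1 for both, and the medians from 0.26 to 0.69 and from 0.54 to 1.40. The highest medians came without control replicate 1 for H3K4me3 and without control replicate 2 for H3K27ac. The 1 lower member was IFIT1 without control replicate 2 for H3K4me3 and IFIT2 without control replicate 1 for H3K27ac. Members with an H3K4me3 peak at the 5′ end in each ATRA and no control library ranged from 1 to 2, and the opposite class from 0 to 1. The shares of all genes in these classes with a replicate left out are not given.

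Members with an H3K4me3 peak at the 5′ end in every library numbered 2. This became 1 with the q threshold, 4 within 1 kb, 5 with any annotated start, 5 at the canonical start and 5 within 1 kb of it. Over all genes the share was 47.2% at the 5′ end and 50.4% at the canonical start. The class found in each ATRA and no control library, 1 member, became 0 with any annotated start and 0 at the canonical start. For H3K27ac, 0 members in every library became 1 within 1 kb, with any annotated start, at the canonical start and within 1 kb of it. The 2 members in each ATRA and no control library became 0 with the q threshold, and 1 with peaks of at least 1000 bp, with any annotated start and at the canonical start. The canonical start was chosen after seeing the data. For most of these alternatives the share of all genes is not given, so the changes in count are not read as a result about the members.

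Within a mark, the names of the peaks carry 1 tag for both libraries numbered 1 and another for both numbered 2, and the deviations of equally numbered libraries from the condition means correlated across genes (Pearson 0.237 for H3K4me3 and 0.491 for H3K27ac), but the labels do not say what a number marks. With the replicate block, 7 members were higher for H3K4me3 and 6 for H3K27ac, IFIT1 and RIGI in addition, against 54.6% and 59.6% of all genes. The RefSeq gene models were not run, because the table at hand is of another build.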
